A study of Mus musculus with 12 samples.

Results

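Arrays labelled KO/ERRb-wt were compared with arrays labelled WT/mock over all 41345 probe sets of a mouse whole-transcript array. The comparison took 8 of the series' 12 arrays, chosen by their labels as the pair of groups farthest apart. All cells came from the K3 line of mouse embryonic stem (ES) cells. By the labels, KO/ERRb-wt cells carried a knockout of the gene of ERRb (Esrrb) and then received a lentivirus carrying an ERRb sequence, here clones 12-1 and 12-3. WT/mock cells (clones 5-2 and 5-5) had neither the knockout nor that virus, and the third group, KO/mock (clones 8-3 and 8-4), had the knockout alone. A group thus had 2 clones, and each clone 2 arrays, which the labels call biological replicates. All cells, controls included, had been grown in N2B27, a serum-free medium, with LIF and a pair of inhibitors (CH99021, of the kinase GSK3, and PD0325901, of the kinase MEK). They then spent 3 days with the inhibitors and doxycycline and no listed LIF. The comparison asks what remains different from wild-type cells once the knockout cells carry the ERRb virus. Genes of chromosome 14 are described apart from the rest.

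ERRb is an orphan nuclear receptor that binds DNA at short response elements and acts beside Oct4, Sox2, Nanog and the Klf factors in the naive state of pluripotency. Inhibition of GSK3 stabilises beta-catenin, which relieves repression by Tcf7l1, and Esrrb is a known target of that repressor. In other tissues the ERR family, with its coactivators, is known for controlling genes of mitochondrial energy metabolism.

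The deposited values were log2 expression after RMA, a method that corrects background, equalises arrays and summarises probes, and array medians lay between 5.00 and 5.07. Differences below are log2 differences, KO/ERRb-wt minus WT/mock, with their SE from the limma fit. "Called" means an adjusted p under 0.05, and "higher" and "lower" refer to the arrays labelled KO/ERRb-wt unless said otherwise. The p-values compare 4 arrays from 2 clones with 4 from 2, and what sets the clones of one label apart from those of the other is part of every difference. The knockout and the virus differ together between these groups and cannot be told apart here. ES cell markers were present: 8 of the 9 measured had a mean level of at least 6, and the mean level of all 9 was 10.10 to 10.20 on WT/mock and 10.06 to 10.10 on KO/ERRb-wt arrays. The exception was Dppa5a, at 4.90 and 4.99.

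Esrrb itself went against its label. Its probe set read 7.38, 7.38, 7.39 and 7.38 on the WT/mock arrays and 6.99, 6.76, 6.50 and 6.68 on the KO/ERRb-wt arrays. The KO/mock arrays read 7.48, 8.00, 7.74 and 7.41. Every KO/ERRb-wt array lay below every WT/mock array, and every KO/mock array lay above every WT/mock array (difference 0.28, limma adjusted p = 0.324). The difference of KO/ERRb-wt from WT/mock was -0.65 ± 0.13 (limma, adjusted p = 0.00557), and the exact permutation test gave p = 0.0286, the smallest that 4 arrays against 4 allow. That test shuffled arrays without regard to clone, so it does not measure the spread between clones. Without clone 12-3 the difference was -0.50 and the call ended (adjusted p = 0.0591). The sources used here do not give where the gene was disrupted or which sequence the virus carried, and the probe set may cover neither. Groups are therefore named as the arrays are labelled, and each direction is a direction between labelled arrays. The relatives Esrra (-0.05 ± 0.08) and Esrrg (0.21 ± 0.08), which bind like elements, were not called, with adjusted p-values of 0.76 and 0.115.

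Differences were many and mostly modest. Of the 41345 probe sets, 6460 (15.6%) were called, 2841 higher and 3619 lower, and 410 of them had a change of 2-fold or more. When genes were counted, outside chromosome 14 4291 of 21340 (20.1%) were called. Of these, 1939 (9.09%) were higher, with a median of 0.35, and 2352 (11.0%) were lower, with a median of -0.43. The arrays of the groups did not overlap for 5973 genes (28.0%). Among the 9405 genes with a mean level of at least 6, where gene lists of ES cells mostly fall, 3411 (36.3%) were called, so list counts are read against that share too. The count depended on 2 clones: it was 2087 without clone 5-2 and 2641 without clone 12-3, and 1281 when each clone was averaged first. Scaling moved the direction, since 45.2% of the called genes were higher as deposited, 50.6% after quantile normalisation and 35.2% after centring each array on its median. For comparison, with samples shared, KO/mock minus WT/mock called 963 such genes (4.51%) and KO/ERRb-wt minus KO/mock called 940 (4.40%). The pair reported here was chosen as the groups farthest apart, so its larger count is a description only. Between clones of one label, 2 arrays against 2, limma called 0 probe sets for clones 5-5 and 5-2 (3113 at an unadjusted p under 0.05) and 7 for 12-3 and 12-1 (2756). Such a small test does not show that the clones are alike.

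The largest decreases outside chromosome 14 were in a mixed set of membrane, structural and secreted proteins. Des, the muscle intermediate filament desmin, read 8.17, 8.47, 7.77 and 7.51 on WT/mock arrays and 5.59, 5.81, 5.83 and 5.56 on KO/ERRb-wt arrays. The groups were separated by more than 1 log2 unit, and the difference was -2.29 ± 0.19 (limma, adjusted p = 2.45e-05), a 4.88-fold lower level. Mme, the cell-surface peptidase neprilysin, read 8.38, 8.19, 8.12 and 7.99 against 5.77, 5.96, 6.10 and 5.77, a difference of -2.27 ± 0.12. Both genes were picked among those whose arrays did not overlap, which held for 28.0% of genes outside chromosome 14. The mean of Mme on KO/mock arrays was 7.69, and KO/mock minus WT/mock was -0.49 (limma, adjusted p = 0.0519). For Des the KO/mock mean was 6.66.

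Adhesion receptors were among these decreases. Itga3 (integrin alpha 3, a laminin receptor chain) read 7.93, 7.94, 7.80 and 7.61 on WT/mock arrays and 6.20, 6.25, 6.17 and 6.10 on KO/ERRb-wt arrays. The spread within each group was small beside the difference of -1.64 ± 0.08 (limma, adjusted p = 1.23e-06). Itga5, the fibronectin receptor chain, fell by 1.50 ± 0.18, and the junction protein Jam2 by 1.46 ± 0.11. Laptm4b, a lysosomal membrane protein, fell by 1.87, and the fatty acid elongase Elovl7 by 1.86. Lower as well were the lipid transporter Abca3 (-1.82), the imprinted amino acid transporter Slc38a4 (-1.77), the X-linked homeobox gene Rhox5 (-1.93) and the angiogenic factor Vegfa (-1.48). The aspartate aminotransferase relative Got1l1 (-2.09), the kallikrein Klk1 (-1.67) and the potassium channel Kcnt2 (-1.63) completed the 14 genes with the largest fall once predicted and non-coding gene models were left out. They were chosen among genes whose arrays did not overlap between the groups. No single array or clone left out ended one of these calls.

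**Figure D1:**
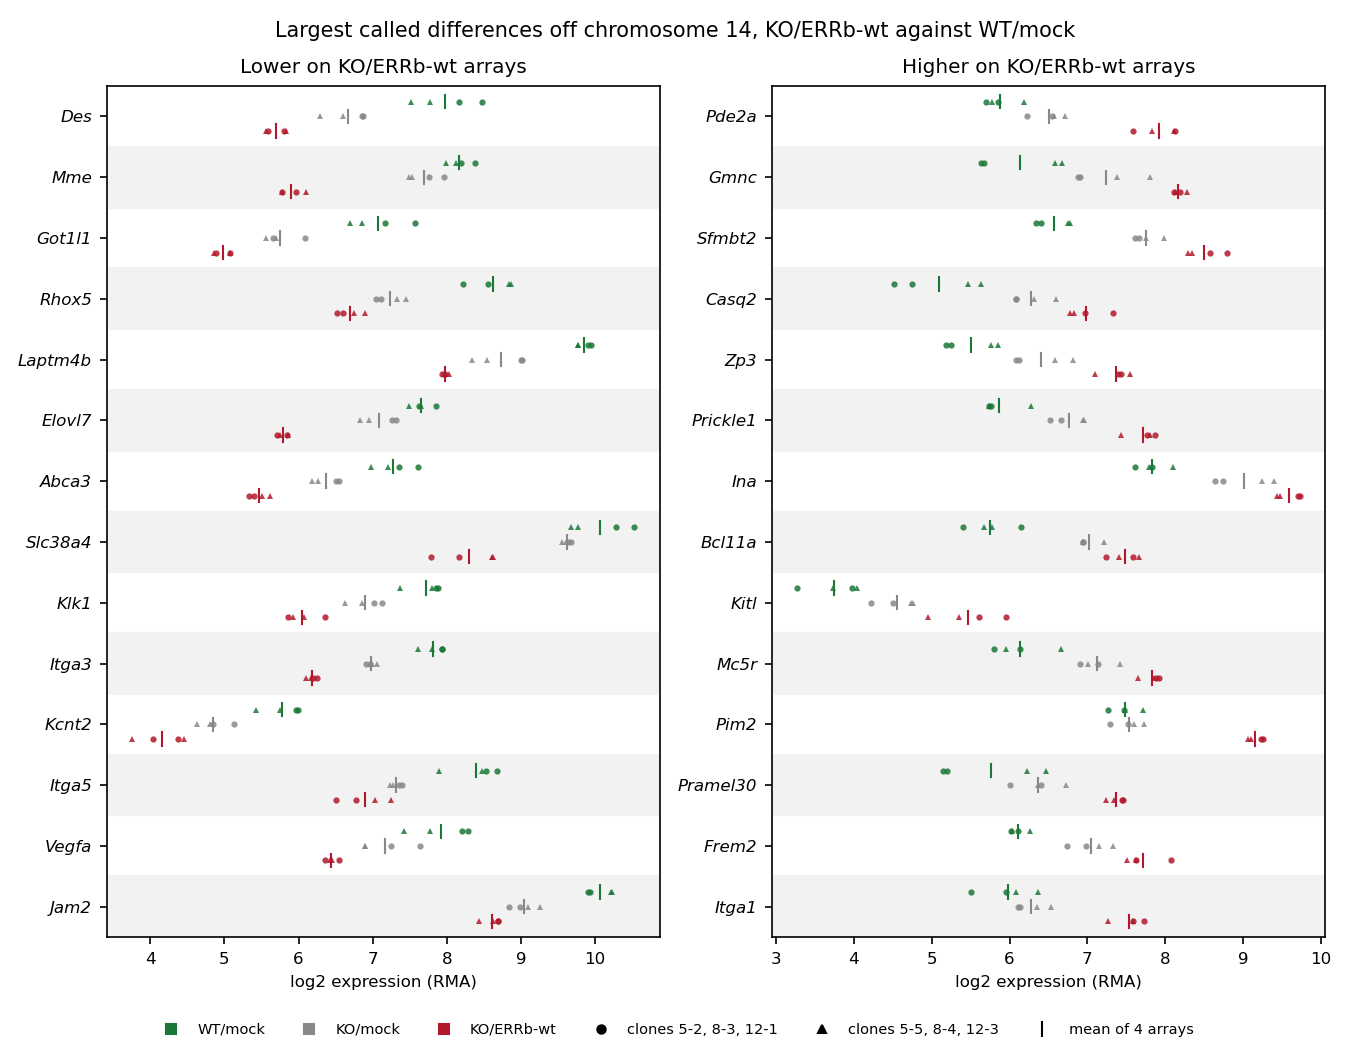
Log2 expression (x axis) of the 14 genes outside chromosome 14 with the largest called decrease (left) and the 14 with the largest called increase (right). They were taken among genes whose arrays did not overlap, without symbols such as Gm or Rik (predicted or non-coding models) and without olfactory or vomeronasal receptors. Each point is 1 array, its shape the clone, its colour the labelled group, and the tick the mean of 4 arrays. By that choice, the points of WT/mock (green) and KO/ERRb-wt (red) are apart for each gene, as for Des with means of 7.98 and 5.70. The WT/mock clones are apart for many of these genes. Among the increases, clone 5-2 lies below clone 5-5 for Casq2, Gmnc, Pramel30, Zp3 and Sfmbt2. Among the decreases, it lies above clone 5-5 for Des, Got1l1, Slc38a4 and Vegfa, and below it for Rhox5 and Jam2. Of the genes named here, all but Rhox5 and Jam2 thus have clone 5-5 nearer to KO/ERRb-wt, and the size of a difference depends on the clone.

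Among the largest increases were genes of signalling and of chromatin. Pde2a, a phosphodiesterase that breaks down cyclic nucleotides, read 5.70, 5.85, 6.18 and 5.78 on WT/mock arrays and 8.13, 7.59, 8.11 and 7.83 on KO/ERRb-wt arrays. All 4 KO/ERRb-wt values lay above 7.5, and the difference was 2.04 ± 0.15 (limma, adjusted p = 9.8e-06), or 4.11-fold. Pim2, a kinase gene known as a STAT3 output, read 7.27, 7.47, 7.49 and 7.72 against 9.23, 9.26, 9.07 and 9.10. Its difference was 1.67 ± 0.11, while the KO/mock mean of 7.54 differed from WT/mock by 0.05 (adjusted p = 0.907) and from KO/ERRb-wt by 1.63 (adjusted p = 5.44e-05). Sfmbt2, an imprinted Polycomb gene, read 6.34, 6.41, 6.78 and 6.75 against 8.58, 8.79, 8.29 and 8.34, a difference of 1.93 ± 0.14. Sfmbt2 was at 7.75 on KO/mock arrays, 1.18 above WT/mock (adjusted p = 0.00072).

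Gmnc, a regulator of multiciliated cells, was higher by 2.03 ± 0.26. Its WT/mock arrays split by clone, at 5.67 and 5.63 for clone 5-2 and 6.68 and 6.59 for clone 5-5, and both clones lay below every KO/ERRb-wt array (8.11 to 8.28). The calcium-binding protein Casq2 (1.89), the egg-coat gene Zp3 (1.86), the planar polarity gene Prickle1 (1.85) and the neuronal intermediate filament Ina (1.76) rose too. So did the transcription factor Bcl11a (1.73), though only by the brighter of its probe sets, the other giving 0.03 at a mean level of 3.59. Kitl, the ligand of the receptor KIT, rose by 1.71 ± 0.22 from a dim 3.75 to 5.47. Mc5r (1.69), Pramel30 (1.61), the matrix gene Frem2 (1.60) and Itga1 (1.57), a collagen receptor chain, complete the list of 14 increases, chosen in the same way.

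Naive pluripotency factors were more often lower than higher. Outside chromosome 14, 11 of 20 measured members were called lower and 4 higher, with a median of -0.28 beside 0.03 over all genes. Of the 19 members with a mean level of at least 6, 15 were called, beside 36.3% of all genes of such a level. The list was chosen with earlier results of these data known, so its count is a description only. Those called lower include Esrrb, the targeted gene, and Jam2, already named among the largest decreases. The whole list of 21 had 16 calls, 14 without clone 5-2 and 12 without clone 12-3. Tbx3, a T-box factor of the naive network, read 10.10, 10.00, 10.01 and 9.95 on WT/mock arrays and 8.73, 8.74, 8.89 and 8.88 on KO/ERRb-wt arrays. Replicates agreed within 0.2, and the difference was -1.21 ± 0.06 (limma, adjusted p = 1.46e-06). On KO/mock arrays Tbx3 was at 9.59, 0.42 below WT/mock (adjusted p = 0.00228).

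Among the other naive genes, Jam2 fell by 1.46, as above. Zfp57, which guards imprints, and Prdm14, a repressor of methylation genes, both fell by 0.83, Klf4 by 0.78 and Tet2, a methylcytosine oxidase, by 0.76. Nanog fell by only 0.40 ± 0.05, yet its arrays were tight, with 12.33 to 12.35 on WT/mock and 11.91 to 11.96 on KO/ERRb-wt arrays (adjusted p = 0.000195). Fgf4 (-0.44), Tcl1 (-0.34) and Tfcp2l1 (-0.21) were lower as well. The direction was opposite for Dppa3, a maternal factor that restrains methylation, which read 7.87, 8.19, 7.99 and 8.25 against 9.45, 9.62, 9.17 and 9.53. That difference of 1.37 ± 0.13 left the groups well apart (limma, adjusted p = 4.23e-05). The nuclear receptor Nr5a2 rose by 0.57 and Klf2 by 0.41, the latter call resting on single arrays (2 of the 12 ended it when left out). Zfp42 (0.04), Stat3 (-0.04) and Nr0b1 (0.05) were not called.

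In the core pluripotency list, 6 of 16 members were higher and 2 lower (median 0.15). Sox2 (-0.07, adjusted p = 0.65) and Pou5f1, the gene of Oct4 (0.22, adjusted p = 0.0535), were not called, nor was Tdgf1 (-0.01). Lin28a, an RNA-binding protein, rose by 0.76 ± 0.14 and Sall4 by 0.37 ± 0.07. A dimmer Sall4 probe set, at a mean level of 4.86, gave 0.14 and was not called. Utf1 fell by 0.27 ± 0.05. In the list of formative and primed epiblast genes, 5 of 15 were higher and none of the others was called (median 0.17). The called members were Dnmt3b, Grhl2, Lef1, Cdh2 and Lefty1, while Fgf5, a defining primed gene, stayed dim at 4.50 and 4.79 and was not called (adjusted p = 0.316). Otx2, on chromosome 14, was at 6.16 and 6.20. Among members outside chromosome 14 with a mean level of at least 6, 8 of 16 core and 5 of 13 formative and primed genes were called. The share over all genes of such a level was 36.3%.

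Genes that write and erase DNA methylation moved in both directions. Of 16 measured members, 6 were higher and 6 lower. Of the 15 with a mean level of at least 6, 12 were called, beside 36.3% of all genes of such a level. Dnmt3l, the cofactor of the de novo methyltransferases, read 7.81, 7.75, 8.12 and 8.03 on WT/mock arrays and 9.40, 9.37, 9.47 and 9.41 on KO/ERRb-wt arrays. Its KO/ERRb-wt values spanned 0.1, and the difference was 1.49 ± 0.10 (limma, adjusted p = 5.5e-06). Dnmt3b, a de novo enzyme, read 9.66, 9.62, 9.70 and 9.92 against 11.01, 10.96, 10.98 and 10.96, a difference of 1.25 ± 0.12. The groups of both genes were fully apart. On KO/mock arrays Dnmt3l was 0.90 and Dnmt3b 0.66 above WT/mock (adjusted p = 0.000448 and 0.00906). The maintenance enzyme Dnmt1 rose by only 0.22, Mbd3 by 0.40 and Trim28 by 0.26. The cytidine deaminase Apobec1 (-1.07), Tet2 (-0.76), Gadd45b (-0.63) and the glycosylase gene Mbd4 (-0.35) were lower. Without clone 5-2 this list had 7 calls in place of 12, and the call of Uhrf1 (0.19) ended without any of 9 single arrays.

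Genes of the Wnt and beta-catenin list were more often higher than lower. The list holds pathway components, such as Tcf7l1 and Ctnnb1, beside outputs. Outside chromosome 14, 10 of 16 members were called higher and none of the other 6 was called, with a median of 0.43 beside 0.03 over all genes. Of the 13 with a mean level of at least 6, 9 were called, beside 36.3% of all genes of such a level. This list too was chosen with earlier results of these data known. Sp5, a direct Wnt target, read 5.72, 6.25, 6.17 and 6.31 on WT/mock arrays and 7.23, 7.39, 6.96 and 7.30 on KO/ERRb-wt arrays. Its difference was 1.10 ± 0.15 (limma, adjusted p = 0.000399), with no overlap. Dkk1, a secreted inhibitor of the pathway, rose by 1.02 ± 0.13 at dim levels of 4.67 and 5.69. Notum, an extracellular Wnt inhibitor, read 6.35, 6.05, 6.36 and 6.62 against 7.16, 7.13, 7.16 and 7.09. A dimmer Notum probe set, at a mean level of 4.67, gave 0.30 and was not called.

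Tcf7l1, the repressor in this pathway that also acts on Esrrb, read 9.34, 9.20, 9.36 and 9.41 against 9.99, 10.02, 10.00 and 10.05. Its difference of 0.69 ± 0.11 was larger than the spread of either group (limma, adjusted p = 0.00121). Lef1 rose by 0.90 ± 0.14, and its KO/mock mean of 9.05 was close to the KO/ERRb-wt mean of 9.00. Feedback genes rose less, Axin2 by 0.47 and Znrf3 by 0.25, and Ctnnb1, the beta-catenin gene itself, was not called (0.14, adjusted p = 0.135). The calls of Znrf3 and Cdx2 ended without single arrays (5 and 1 of the 12). Over the whole list of 17, in which Tnfrsf19 lies on chromosome 14, the number of calls went from 11 to 6 without clone 5-2 and to 4 on clone averages.

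**Figure D2:**
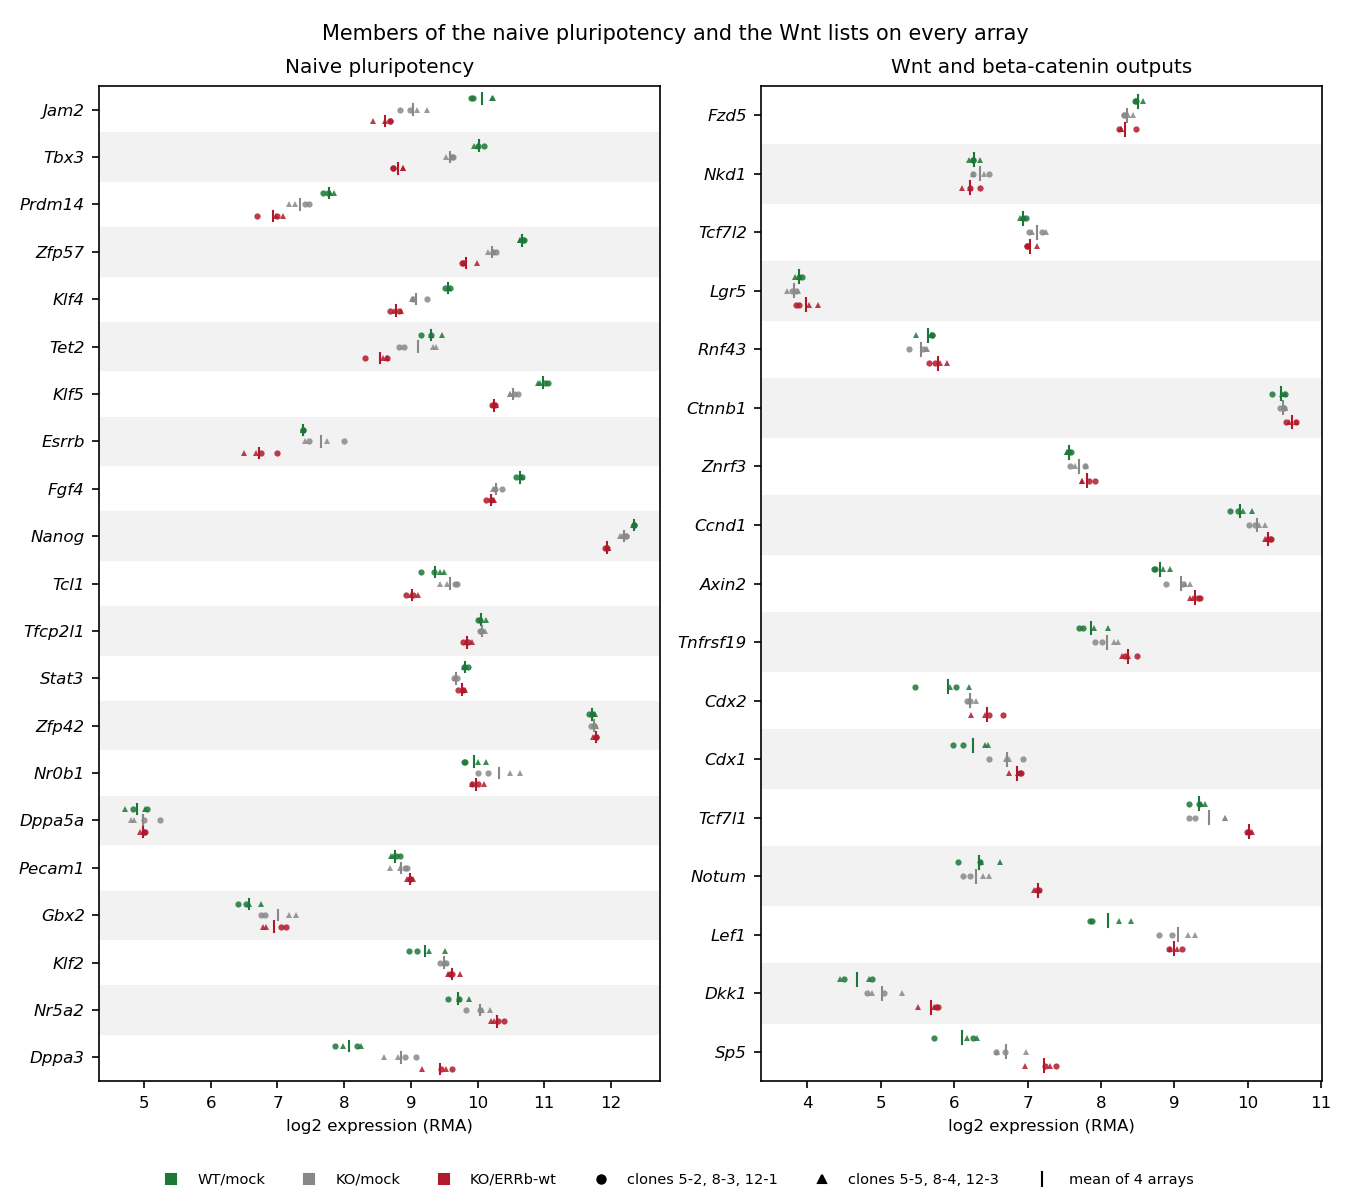
Log2 expression (x axis) of every measured member of the naive pluripotency list (left) and the Wnt list (right), ordered by the KO/ERRb-wt minus WT/mock difference. Points are arrays, shapes clones, colours labelled groups and ticks means of 4 arrays. Tbx3 (means 10.02 and 8.81) and Dppa3 (8.07 and 9.44) differ in opposite directions, while Zfp42 (11.72 and 11.77) and Dppa5a (4.90 and 4.99) hardly differ.

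Other signalling lists were mixed. Of 19 LIF receptor and STAT3 genes outside chromosome 14, 5 were lower and 3 higher (median -0.04): the kinase gene Jak1 fell by 0.70 ± 0.08 and the junction gene Ocln by 0.92 ± 0.08, while Pim2 and the feedback inhibitor Socs2 (0.62 ± 0.12) rose. Of 19 FGF and ERK genes, 6 were higher and 1 lower (median 0.16), led by the receptor gene Fgfr2, which rose by 1.02 ± 0.12 from a dim 4.41. The inhibitors Spry4 (0.83) and Spred1 (0.34) rose, while the ligand gene Fgf4 fell by 0.44. Of 19 BMP, Nodal and SMAD genes, 5 were lower and 3 higher (median -0.01). The receptor gene Bmpr2 fell by 1.01 ± 0.13 and the target gene Id2 by 0.58 ± 0.10, and Id3 was higher by 0.82, a call that 4 single arrays ended when left out. Without clone 5-2 the whole BMP list had 5 calls in place of 10, and the FGF list 5 in place of 8. Outside chromosome 14 and at a mean level of at least 6, 8 of 16 LIF, 5 of 12 FGF and 6 of 13 BMP genes were called. Among all genes of such a level the share was 36.3%.

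Genes of fatty acid use were mostly lower among those called. Of 21 members for uptake and oxidation, 8 were lower and 2 higher (median -0.14). Of the 19 with a mean level of at least 6, 10 were called, beside 36.3% of all genes of such a level. Cpt1a, which controls entry of fatty acids into mitochondria, read 9.66, 9.59, 9.45 and 9.24 on WT/mock arrays and 8.07, 8.14, 8.37 and 8.24 on KO/ERRb-wt arrays. The difference was -1.28 ± 0.11 (limma, adjusted p = 1.92e-05), and the lowest WT/mock array lay above the highest KO/ERRb-wt array. On KO/mock arrays Cpt1a was at 8.73. The acyl-CoA dehydrogenase gene Acadl fell by 0.90 ± 0.09 and Cpt2 by 0.43 ± 0.07. The transporter gene Slc27a2 went the other way, from 6.38, 6.04, 6.48 and 6.37 to 8.02, 7.70, 7.51 and 7.50, a rise of 1.36 ± 0.15. A dimmer Slc27a2 probe set, at a mean level of 4.15, gave 0.05.

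The respiratory chain, a set of known ERR family targets in other tissues, had few calls. Of 29 members, all with a mean level of at least 6, 3 were lower and 1 higher (median 0.01). That is 13.8%, against 36.3% of all genes of such a level. The succinate dehydrogenase subunit Sdhc fell by 0.35 ± 0.07. The others, Uqcrc2 (-0.24), Ndufv2 (-0.18) and Ndufv1 (0.18), were small, and their calls ended when 2, 11 and 5 of the 12 single arrays were left out. Without clone 5-2 limma called 0 of the 29 (7 at an unadjusted p under 0.05 with all arrays). Of 17 tricarboxylic acid cycle genes outside chromosome 14, 4 were lower and 3 higher (median -0.03), with Suclg2 at -0.81 ± 0.06, Idh2 at -0.64 ± 0.10 and Dld at -0.56 ± 0.07. Of 20 glycolysis and lactate genes, 5 were higher and 5 lower. They differed by isoform: Pfkl (0.59), Pkm (0.36), Slc2a1 (0.32) and Hk2 (0.31) rose, while Slc2a3 (-0.49), Hk1 (-0.46) and Pfkp (-0.32) fell. A dimmer Slc2a1 probe set, at a mean level of 5.47, gave 0.05. All these 20 genes and the 17 cycle genes had a mean level of at least 6. Their counts called, 10 and 7, are read beside the same 36.3%.

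Of 15 cholesterol synthesis genes outside chromosome 14, all with a mean level of at least 6, 6 were lower and 1 higher (median -0.13), beside 36.3% called among all genes of such a level. Insig1, which holds the sterol sensor in the endoplasmic reticulum, read 10.65, 10.61, 10.60 and 10.58 on WT/mock arrays and 9.82, 9.79, 9.93 and 9.93 on KO/ERRb-wt arrays, a difference of -0.75 ± 0.05 (limma, adjusted p = 8.69e-06). The arrays did not overlap. The enzyme genes Cyp51 (-0.67) and Dhcr7 (-0.48) were lower, and Ebp (0.55 ± 0.06) was higher. Of 17 elongase and desaturase genes, 5 were lower, among them Elovl7 and the desaturase gene Scd1 (-0.57 ± 0.07), and 2 were higher, the synthase gene Fasn (0.40 ± 0.07) and Fads3 (0.35). With 6 of the 15 elongase and desaturase genes of a level of at least 6 called, that share was near the same 36.3%.

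Cell adhesion genes were mostly lower among those called: 10 of 23 were lower and 4 higher, with a median of -0.22. Besides the integrins and Jam2, the tight junction genes Cldn4 (-0.96 ± 0.10) and Ocln fell, as did Itga6 (-0.54 ± 0.06). Cldn4 read 9.77, 9.93, 9.81 and 9.80 against 8.76, 8.88, 8.82 and 9.01. No array overlapped for Cldn4 or Itga6. Epcam fell by only 0.20, a call that 7 single arrays ended when left out, and N-cadherin (Cdh2) rose by 0.88 ± 0.15. Without clone 5-2 the list had 9 calls in place of 14. Among 23 filament and actin genes, 5 were lower and 4 higher (median -0.03): vimentin (Vim) rose by 0.74 ± 0.09, and Tagln2 fell by 0.76 ± 0.10. Of 17 YAP and TEAD targets outside chromosome 14, 4 were lower and 1 higher (median 0.00), with Ccn1, a matricellular protein, at -1.05 ± 0.15 and the coactivator gene Wwtr1 at -0.53 ± 0.09. At a mean level of at least 6, 13 of 22 adhesion, 8 of 17 filament and actin, and 5 of 13 YAP and TEAD genes were called. For all genes of such a level it was 36.3%.

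Imprinted genes were called in both directions, 6 of 27 lower and 4 higher (median -0.09). Plagl1, a zinc finger factor, read 8.92, 8.83, 9.00 and 8.96 on WT/mock arrays and 7.73, 7.53, 7.74 and 7.55 on KO/ERRb-wt arrays. The difference was -1.29 ± 0.07 (limma, adjusted p = 1.46e-06), and the groups did not overlap. A dimmer Plagl1 probe set, at a mean level of 2.79, gave -0.45 and was not called. Peg3, another zinc finger factor, read 10.17, 10.33, 10.17 and 10.37 against 11.20, 11.29, 10.99 and 10.94, a rise of 0.84 ± 0.09. Peg10 rose by 0.57 ± 0.09, and the non-coding gene Rian fell by 0.47 ± 0.07. Of 20 germline genes outside chromosome 14, 7 were lower and 5 higher (median 0.01). The germ-cell helicase gene Ddx4 fell by 1.07 ± 0.11 and the piRNA factor Mov10l1 by 1.39 ± 0.15, while Sohlh2 rose by 0.70 ± 0.10. Of 21 Polycomb genes outside chromosome 14, 5 were higher and 3 lower (median 0.04), with Cbx2 at 0.51 ± 0.10 after Sfmbt2. The number of Polycomb calls went from 8 to 2 without clone 5-2. At a mean level of at least 6, 9 of 18 imprinted, 7 of 8 germline and 8 of 19 Polycomb genes outside chromosome 14 were called. Over all genes of such a level 36.3% were called.

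Stress and immune lists were called in both directions. Of 22 unfolded protein and amino acid stress genes, 7 were lower and 2 higher (median -0.10), with Chac1 at -1.01 ± 0.20, Ddit3 at -0.80 ± 0.18 and Vldlr at -0.73 ± 0.08. Without clone 5-2 this list had 2 calls in place of 9. Of 18 p53 targets, 3 were lower and 2 higher (median 0.00), with Plk2 at 0.82 ± 0.14, and the list had 2 calls in place of 5 without clone 5-2. Of 22 interferon genes outside chromosome 14, 3 were higher and 3 lower (median 0.05). The immunity GTPase gene Irgm1 rose by 1.45 ± 0.15 from a dim 4.62, the factor Irf1 rose by 0.71 ± 0.06, and Stat2 fell by 0.58 ± 0.09. Of 23 cell cycle genes, 5 were higher and 4 lower (median 0.07): Ccnd1 rose by 0.38, and Ccnb2 and Ccnd3 fell by 0.59 and 0.54. Without clone 5-2 the cell cycle list had 3 calls in place of 9. All 23 cell cycle genes had a mean level of at least 6, and the 39.1% called was near the 36.3% of all genes of such a level. At that level 8 of 19 stress, 5 of 16 p53 and 5 of 8 interferon genes outside chromosome 14 were called.

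**Figure D3:**
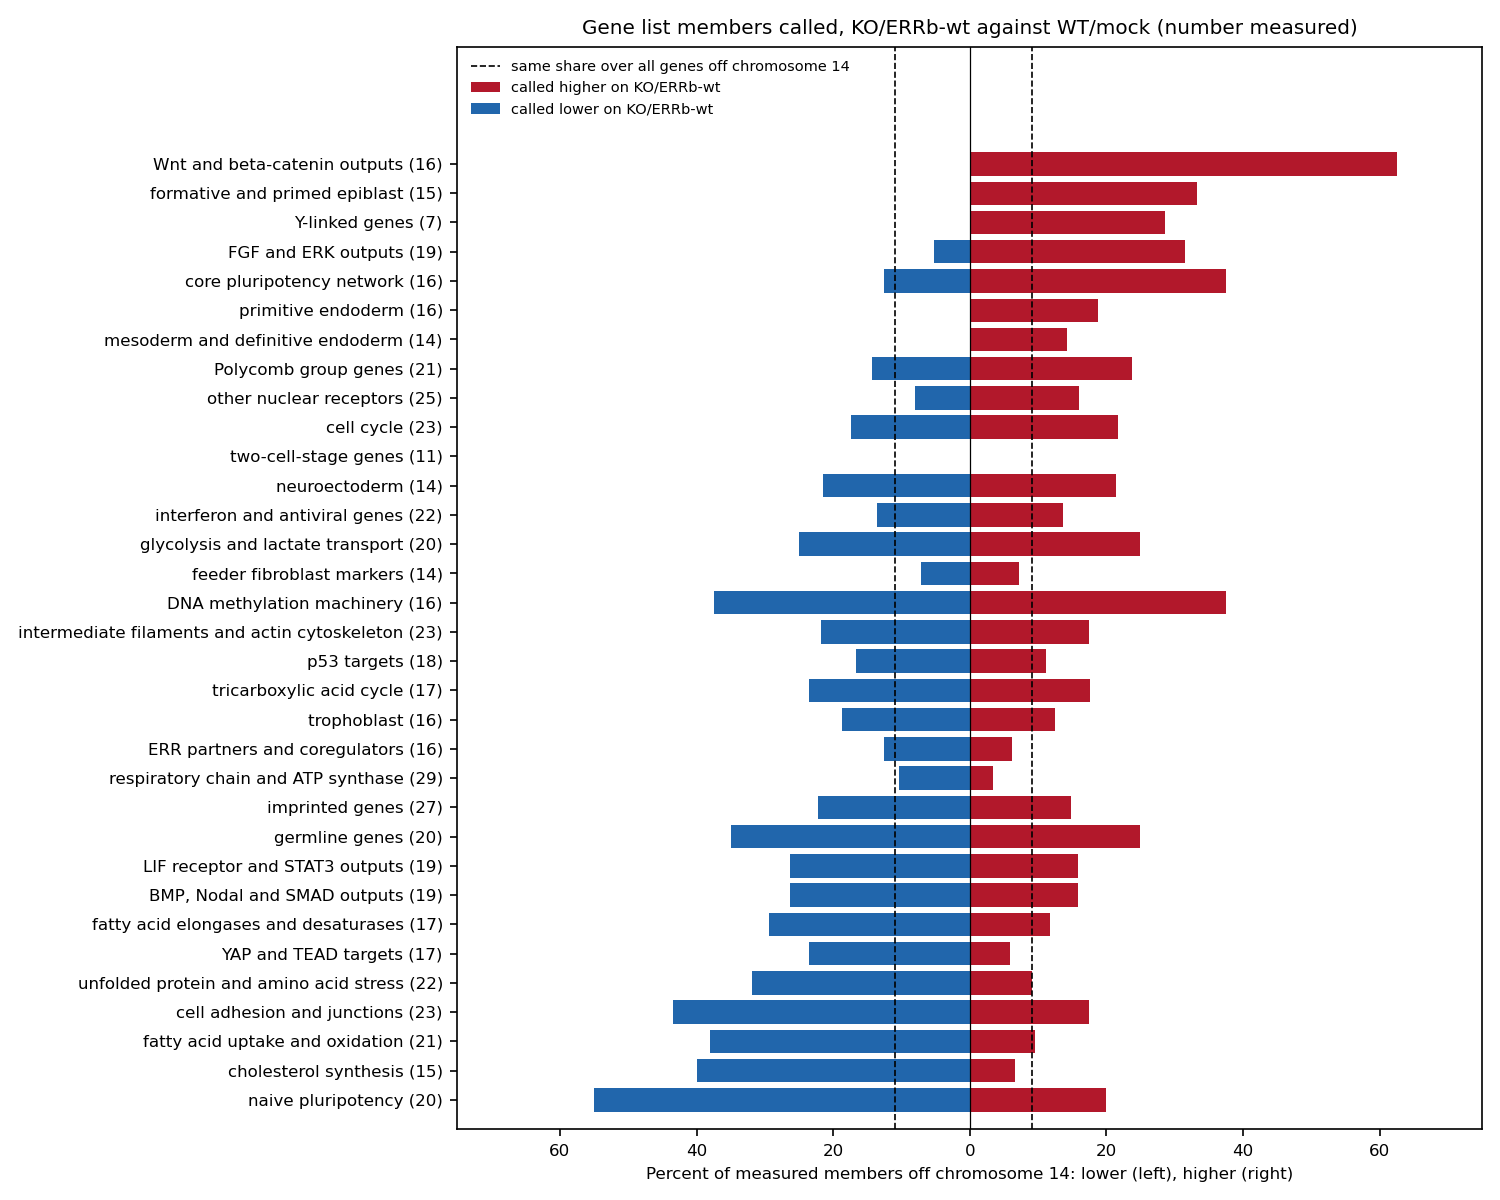
Percent of measured members outside chromosome 14 called higher (red, right) or lower (blue, left) on KO/ERRb-wt arrays, for the 33 gene lists, with the number measured in brackets. Dashed lines mark the shares over all genes outside chromosome 14, 9.09% higher and 11.0% lower. The Wnt list stands at the top with 10 of 16 higher and the naive list at the bottom with 11 of 20 lower, and the two-cell list has no bar.

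Markers of feeder fibroblasts were low, and those of other cell types varied in level. Feeder fibroblast markers had mean levels of 4.91 to 5.06 on WT/mock and 4.94 to 5.02 on KO/ERRb-wt arrays, near the array median, and 2 of 14 were called, Thy1 (0.35) and Mmp2 (-0.35), both calls that single arrays ended. Of 11 genes of the two-cell stage, limma called 0 (2 at an unadjusted p under 0.05), and their mean level was 3.48 to 3.57 and 3.56 to 3.69. Primitive endoderm genes averaged 5.90 to 5.99 and 6.07 to 6.18. Outside chromosome 14, 3 of 16 of them were higher, among them the laminin gene Lamb1 (1.14 ± 0.09) and Hnf4a (0.57 ± 0.09), and Gata6, a defining marker, was at 4.64 and 4.44 and was not called. The share called was 18.8% in this list and 14.3% in the feeder list, beside 20.1% over all genes outside chromosome 14.

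The mean levels of the mesoderm and neuroectoderm lists, like that of the primitive endoderm list, were above those of WT/mock on every KO/ERRb-wt array. The median difference over all genes outside chromosome 14 was also above 0, at 0.03, and was -0.01 at a mean level of at least 6. Mesoderm and definitive endoderm genes averaged 5.18 to 5.40 on WT/mock and 5.45 to 5.52 on KO/ERRb-wt arrays, with 2 of 14 higher, Evx1 (0.78 ± 0.12) and Snai1 (0.46, a call that 9 single arrays ended). Neuroectoderm genes averaged 5.71 to 5.87 and 5.95 to 6.01, and 3 of 14 were higher and 3 lower (median 0.21), 42.9% beside 20.1% over all genes: Ina and the tubulin gene Tubb3 (0.71 ± 0.13) rose, and Ncam1 (-0.60 ± 0.09) and Sox1 (-0.67 ± 0.13) fell. Of 16 trophoblast genes outside chromosome 14, 3 were lower, including Tead4 (-0.61 ± 0.07), and 2 were higher. Their mean level was 6.43 to 6.61 and 6.46 to 6.63. Of the 10 trophoblast genes outside chromosome 14 with a mean level of at least 6, 5 were called. The share called was 14.3% in the mesoderm list and 31.2% in the trophoblast list, beside the same 20.1%. The part of other cell types in the results was not tested.

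Of 7 Y-linked genes measured, 2 were called (28.6%, beside 20.1% over all genes outside chromosome 14), Uty and Uba1y, both higher. Uty read 6.58 and 6.49 in clone 5-2, 7.37 and 7.28 in clone 5-5, 8.31 and 8.33 in clone 12-1, and 7.90 and 8.16 in clone 12-3. The WT/mock clones were both below the KO/ERRb-wt clones, with a difference of 1.24 ± 0.19 (limma, adjusted p = 0.000946), and the KO/mock mean was 8.26. Uba1y was higher by 0.90 ± 0.15. Neither gene was called on clone averages, and the part of this difference in the other results was not tested.

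The other nuclear receptors and the ERR partners had calls in both directions. Of 16 partners and coregulators, 2 were lower, Esrrb itself and Gabpa (-0.24 ± 0.05), and 1 was higher, Nrf1 (0.26, a call that 4 single arrays ended). The coactivator gene Ppargc1a was at 3.12 in both groups. The calls made up 18.8% of the partners, near the 20.1% over all genes. Of 25 other nuclear receptors outside chromosome 14, 4 were higher and 2 lower (median 0.12), beside 20.1% called over all genes, with Nr5a2 at 0.57, Rarg at 0.44 and the thyroid receptor gene Thra at -0.45. Among the 15 with a mean level of at least 6, 6 were called, beside 36.3% of all genes of such a level. Without clone 5-2 the receptor list had 2 calls in place of 6 and the partners 1 in place of 3. The number of calls also fell without clone 12-3: from 10 to 6 in the BMP list, 9 to 3 in the unfolded protein list, 8 to 4 in the Polycomb list, 6 to 3 among the receptors, 5 to 2 among p53 targets and 4 to 2 in the respiratory chain. Without clone 5-2 it went from 8 to 5 in the core pluripotency list, and from 7 to 4 in both the elongase and the interferon lists.

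The ERR response element was looked for in the windows before gene starts, since ERRb is the gene at issue. RefSeq windows (GRCm38.p6) of 250 bases before the start were searched on both strands for TCAAGGTCA and for its shorter core AAGGTCA, which the longer motif contains. The longer motif was in 127 of 32851 windows (0.387%) and the core in 1340 (4.08%). By gene, the core was in 51 of 1520 called higher genes outside chromosome 14 (3.36%), in 62 of 1864 called lower genes (3.33%) and in 4.19% of the 16393 genes tested there. Of 147 named genes 122 had a window, and 7 of those held the core. The 4 shown are the one with the longer motif and the next 3 by adjusted p, in gene orientation, with the motif in capitals on whichever strand it was found (for Polk the 9-base motif, for the others the core). They are Polk (chr13:96519188-96519437, minus strand), a translesion polymerase, Klk1 (chr7:44225110-44225359, plus), Slc27a2 (chr2:126552774-126553023, plus) and the interferon factor Irf9 (chr14:55604329-55604578, plus).
Polk: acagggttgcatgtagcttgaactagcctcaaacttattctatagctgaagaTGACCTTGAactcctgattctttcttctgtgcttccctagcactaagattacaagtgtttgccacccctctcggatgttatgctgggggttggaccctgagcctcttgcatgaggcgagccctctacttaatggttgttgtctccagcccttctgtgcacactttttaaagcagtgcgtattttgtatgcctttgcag
Klk1: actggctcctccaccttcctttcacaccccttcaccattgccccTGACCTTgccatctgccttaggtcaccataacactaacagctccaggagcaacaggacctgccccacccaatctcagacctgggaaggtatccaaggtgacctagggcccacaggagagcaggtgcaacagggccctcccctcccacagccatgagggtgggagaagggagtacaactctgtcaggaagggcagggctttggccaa
Slc27a2: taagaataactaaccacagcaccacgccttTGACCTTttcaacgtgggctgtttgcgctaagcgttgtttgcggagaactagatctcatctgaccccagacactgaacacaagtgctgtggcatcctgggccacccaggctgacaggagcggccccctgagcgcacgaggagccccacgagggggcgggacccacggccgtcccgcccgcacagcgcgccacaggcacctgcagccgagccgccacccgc
Irf9: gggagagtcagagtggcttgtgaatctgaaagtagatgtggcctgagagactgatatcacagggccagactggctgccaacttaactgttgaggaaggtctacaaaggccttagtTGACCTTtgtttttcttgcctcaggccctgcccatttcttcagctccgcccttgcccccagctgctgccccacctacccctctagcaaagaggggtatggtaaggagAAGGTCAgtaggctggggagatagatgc
In these windows the first match began 198, 206, 220 and 135 bases before the start, and Irf9 held 2. Their genes did not share a direction: Polk was at -0.51 (not called without either of 2 clones), Klk1 at -1.67, Irf9 at -0.71 and Slc27a2 at 1.36. A match describes the letters only.

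Chromosome 14 stood apart from the other chromosomes. Of its 796 genes, 318 (39.9%) were called, of which 303 (38.1% of the genes) were lower and 15 (1.88%) higher, and the arrays of the groups did not overlap for 342 (43.0%). Over its 343 genes with a mean level of at least 6, the median difference relative to the 9405 such genes elsewhere was -0.47, a ratio of 0.723, and 312 of the 343 (91.0%) lay below 0 against 51.5% elsewhere. Relative to the mean of the WT/mock arrays, each KO/ERRb-wt array lay between -0.44 and -0.47. Each WT/mock array, set against the mean of the other WT/mock arrays, lay between -0.02 and 0.01. The same measure on the other autosomes and X, 19 chromosomes, ran from -0.06 to 0.05, and Y, with only 3 such genes, was at 0.92. Exact permutation of the 8 arrays gave p = 0.0286, the smallest possible. Chromosome 14 was set apart with earlier results of these data known, so this p is a description only. The permutation shuffled arrays without regard to clone, so it does not measure the spread between clones. The shift needs measurable genes, since it was -0.14 with no filter on level and -0.50 at a level of at least 8. KO/mock arrays, with the same WT/mock controls, lay between -0.41 and -0.45, with 273 genes (34.3%) called. Between KO/ERRb-wt and KO/mock, 37 genes (4.65%) were called and the shift was -0.03. The shift and the knockout label cannot be told apart.

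Along the chromosome the shift was broad. In 10 consecutive blocks of 34 or 35 genes the median difference lay between -0.38 and -0.58, and in every block at least 23 genes were called lower. The values of KO/mock minus WT/mock in the same blocks lay between -0.35 and -0.47. The third block had the most exceptions, with 27 of its 35 genes below 0. The first block had 34 of 35 genes below 0, and the last 2 had 32 and 33 of 34. Blocks 1, 4, 5, 6, 9 and 10 held no gene called higher.

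**Figure D4:**
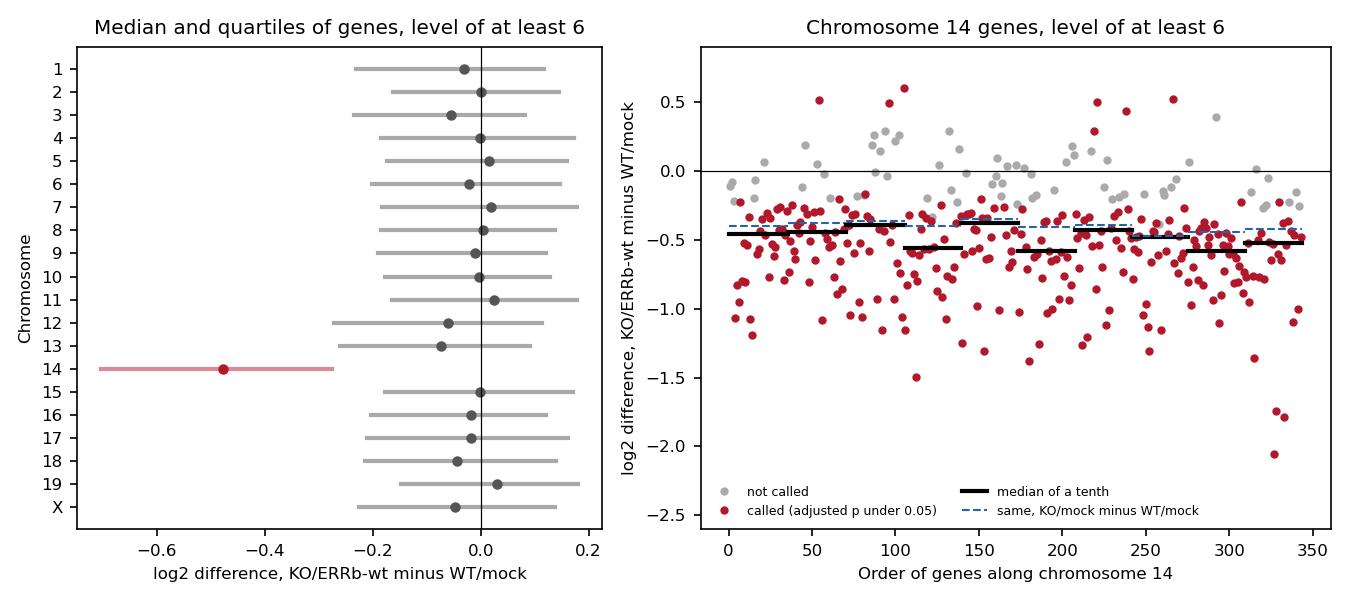
Left, the median (point) and quartiles (bar) of the log2 difference, KO/ERRb-wt minus WT/mock, for genes with a mean level of at least 6 on each autosome and X (Y, with 3 such genes, is not drawn); right, each of the 343 such genes of chromosome 14 in order, with medians of 10 blocks (black) and the same for KO/mock minus WT/mock (dashed blue). Chromosome 14 has a median of -0.48, the others drawn lie near 0, and the blocks are between -0.38 and -0.58.

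Some chromosome 14 genes fell far more than the median of the chromosome. Uggt2, a glucosyltransferase of glycoprotein quality control, read 8.55, 8.71, 8.52 and 8.46 on WT/mock arrays and 6.58, 6.50, 6.52 and 6.42 on KO/ERRb-wt arrays. The difference was -2.06 ± 0.08 (limma, adjusted p = 3e-07), and KO/mock minus WT/mock was -1.56. The peptide transporter Slc15a1 fell by 1.79 ± 0.11, Cfap20dc by 1.60 ± 0.13, the meiotic cohesin subunit Rec8 by 1.38 ± 0.15, Slain1 by 1.36 ± 0.08 and the membrane metalloproteinase Mmp14 by 1.31 ± 0.11. The splicing regulator Mbnl2 fell by 1.74 ± 0.14 by its brightest probe set, and its other probe sets gave -0.16 and -0.51. Slain1 also had a dimmer probe set, at 0.04.

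Bmp4 was the member of this set whose level on KO/mock arrays stayed with WT/mock. This ligand, which supports ES cell self-renewal, read 10.02, 10.00, 10.04 and 10.10 on WT/mock arrays, 9.94, 9.75, 9.98 and 10.34 on KO/mock arrays, and 8.34, 8.58, 8.50 and 8.75 on KO/ERRb-wt arrays. Only the KO/ERRb-wt arrays were low. The differences were -1.50 ± 0.12 from WT/mock (limma, adjusted p = 1.64e-05) and -1.46 from KO/mock (adjusted p = 0.000215), while KO/mock minus WT/mock was -0.04 (adjusted p = 0.936). The BMP receptor gene Bmpr1a, also on chromosome 14, fell by 0.51 ± 0.06.

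Some members of the gene lists on chromosome 14 were called lower, by amounts on either side of the median of the chromosome, and others, such as Otx2 (0.04), were not called. Klf5, a naive pluripotency factor, read 11.01, 11.06, 10.94 and 10.91 against 10.26, 10.22, 10.28 and 10.23, a difference of -0.74 ± 0.05. Gata4 (-0.56), Sucla2 (-0.54), Ajuba (-0.48), Spry2 (-0.45), Irf9 (-0.71), Piwil2 (-0.67), Fdft1 (-0.30) and Pdhb (-0.23) were called lower too. Against that direction, the zinc transporter gene Slc39a14 rose from 8.07, 8.12, 8.16 and 8.33 to 8.59, 8.78, 8.62 and 8.79, by 0.53 ± 0.09 (limma, adjusted p = 0.0021). Arhgef3 rose by 0.52 ± 0.08, Phf11a by 0.52 ± 0.12 and Tnfrsf19, a Wnt output, by 0.50 ± 0.10. The calls of Phf11a and Tnfrsf19 ended without 2 and 1 of the 6 clones.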

How the data were processed

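Biotin-labelled cDNA from total RNA of 12 samples was measured on Affymetrix MoGene 2.0 ST arrays, 1 array per sample. Per the submitters' processing notes, the authors made the deposited log2 expression values in Affymetrix Expression Console by RMA. Their versions were not given in the sources used here. Because RMA brings arrays to one distribution, it hides any shift common to the majority of genes. No detection calls accompany dim values, since only the processed table was used, and the number of arrays limits the precision.

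Probe sets were named from the platform annotation, which can be old: 23521 had 1 symbol, 1814 several and 16010 none listed. A gene took its 1-symbol probe set with the highest mean (22180 genes), and RefSeq GRCm38.p6 placed 22136. Groups and clones came from the labels. All 12 arrays entered 1 limma model (limma 3.58.1, R 4.3.3, statmod 1.5.0) of 3 groups with clone as a random block (correlation 0.0286), adjusted by Benjamini-Hochberg over all 41345 probe sets. At so small a correlation the fit treats the 2 arrays of a clone as nearly independent. Among probe sets with a mean level of at least 6 the correlation was 0.172. The scripts were tested on simulated data. Alternatives dropped the clone block, averaged clones, blocked on replicate number, used only 8 arrays, filtered on level, rescaled arrays, weighted arrays, changed the variance prior, left chromosome 14 out of the fit, or left out each array or clone.

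The genes, the 33 lists and chromosome 14 were chosen with earlier results of these data known. Named were Esrrb and its relatives, ES cell markers, the 14 largest called increases and 14 decreases outside chromosome 14, 8 decreases and 4 increases on it, and up to 4 called members per list with members of the same list set beside them. The largest changes were taken among genes whose array values did not overlap, with no Gm, Rik or like symbols and no olfactory or vomeronasal receptors. Replicate numbers 1 and 2 run within each clone, the labels tie them to no common culture, and their correlations across clones were -0.04 to 0.14, so they were not taken to pair arrays.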

Additional observations from a re-analysis of the deposited data

Results flagged for a closer look

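In 18 groups of 4 arrays, 1 array of a named gene stood apart from the other 3 by more than Dixon's 95% critical value for 4 values. Chance flags about 1 in 20 such groups, and 147 genes were named, with 3 groups each. The count of 18 is therefore not shown to exceed what chance gives. On WT/mock arrays, Prickle1 was at 6.27 (clone 5-5 replicate 2, the others 5.73 to 5.76), Klk1 at 7.37 and Gata4 at 6.84 on the same array (others 7.80 to 7.88 and 7.05 to 7.06), Irgm1 at 4.25 (clone 5-2 replicate 2, others 4.70 to 4.77) and Esrra at 7.05 (clone 5-5 replicate 1, others 7.16 to 7.18). On KO/ERRb-wt arrays of clone 12-1, replicate 2 had Evx1 at 6.77 (others 6.56 to 6.59), Thra at 5.60 (others 5.86 to 5.89) and Sdhc at 9.10 (others 9.23 to 9.25). In clone 12-3, replicate 1 had Utf1 at 10.66, Sucla2 at 8.57, Cbx2 at 8.51 and Zfp42 at 11.73, and replicate 2 had Thy1 at 6.24 and Bmpr2 at 8.05. KO/mock arrays do not enter the size of a difference between KO/ERRb-wt and WT/mock, but they share in its SE and p-values. On them, Bcl11a was at 7.22 and Ddx4 at 7.72, Sdhc at 9.50 and Dld at 9.73.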

How the results depend on the processing

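Clones weighed most. On clone averages (2 against 2) 2251 probe sets were called in place of 6460, with 1281 genes outside chromosome 14 (4291) and 88 list members (219). Without clone 5-2 these were 3245, 2087 and 135, and without clone 12-3 the first 2 were 3931 and 2641. With 1 array left out, the counts ran from 4822 to 6526 probe sets, 3268 to 4312 genes outside chromosome 14, 293 to 317 on it and 187 to 226 list members, the Esrrb difference from -0.73 to -0.57 and the chromosome 14 shift from -0.478 to -0.454. That shift was -0.14 with no filter on level and -0.497 at a level of at least 8. Esrrb was -0.50 without clone 12-3 (adjusted p = 0.0591). With the replicate block 6011 probe sets were called. The direction of 2 uncalled genes turned: Tdgf1 was 0.01 after quantile normalisation, -0.04 to 0.02 without single arrays, 0.05 without clone 5-5 and 0.06 without clone 12-1, and Esrra was 0.00 after quantile normalisation, 0.02 without clone 12-1 and -0.09 to 0.01 without single arrays. Among the lists, 17 counts of members called moved by over 1.5 times without clone 5-2 and 27 on clone averages. Of 140 called genes named for their size or for the smallest adjusted p in a list, 92 kept their call under every alternative, 45 lost it on clone averages and none changed direction. The causes were not tested. Signal over background was not available, so dim levels limit the precision of small differences.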
